A study of Mus musculus with 38 samples.

Results

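Gene expression in small lung vessels was compared between the third and the first day of breathing normal air after chronic hypoxia. The comparison rests on 4 arrays with 2 channels each, those whose titles pair day 1 with day 3, out of 38 arrays in the study. C57BL/6J mice aged 12 to 18 weeks had spent 21 days in normobaric hypoxia with an inspired oxygen fraction of 0.10 and were then returned to normoxia (0.21) for 1 or 3 days. Both groups had therefore been through the same hypoxia, and no genotype or drug set them apart. Vessels with an outer diameter of 50 to 100 µm were taken by laser microdissection out of frozen lung sections, 10 µm thick and stained for nuclei, and the RNA was amplified and labelled. The study text counts 76 animals for the 76 channels of 38 arrays, so each channel was taken to hold 1 animal and the 4 arrays to hold 4 day 1 and 4 day 3 animals. No label assigns an animal to a channel. Titles give the animal in Cy3 first: on 2 arrays (N1_N3) Cy3 labelled a day 1 animal and Cy5 a day 3 animal, and on 2 (N3_N1) the dyes were the reverse. The other 34 arrays, with 68 other animals in hypoxia (H), normoxia (N) or at days 1, 3, 7 and 14 of the return, entered to fit the dye effect and the loop that joins the conditions. All animals were counted as separate replicates.

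In chronic hypoxia, small pulmonary vessels thicken: smooth muscle cells enlarge and divide, fibroblasts lay down collagen and other matrix, and leukocytes gather around the vessel. On return to normal air this remodelling recedes over days to weeks, and the first days are a time in which the drive through hypoxia-inducible factors ends, matrix is degraded and inflammatory cells change. Day 3 against day 1 asks what happens within that early step. Vessels cut from sections are a mixture of smooth muscle, endothelium, adventitia, blood cells and neighbouring lung, so fewer cells of a type and less RNA per cell cannot be told apart.

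No gene was separated between day 3 and day 1 at the threshold used, an adjusted p of 0.05. In the fit of limma over 38 arrays, 0 of 30653 entries (0%) passed after Benjamini-Hochberg adjustment, and the smallest adjusted p was 0.359. An entry is a named gene, averaged over its features, or a feature with no single gene symbol, and 19087 entries were named genes. At an unadjusted p under 0.05 the same fit held 1418 entries (4.63%), 781 higher on day 3 (2.55%) and 637 lower (2.08%), where 1533 would fall under that limit by chance alone if no entry differed. A missed threshold does not show that the days were alike. The median SE of a difference was 0.0300 in log ratio. Its 95% interval, not adjusted for the number of entries, reached 0.0609 to either side. This is 1.15-fold if the deposited logarithm has base 10 and 1.04-fold if it has base 2. Differences well past that size also missed the threshold, up to the largest of all entries at 0.276 in size. The base is not stated, so log ratios are printed as deposited and folds are given for both. The direction, Cy5 over Cy3, is also not stated and follows the convention of the authors' tool, so "higher" and "lower" are likely directions. Every value is turned to day 3 minus day 1. Values of single arrays have the fitted dye effect removed, except where whole arrays are compared with each other in the next paragraph.

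The 4 direct arrays agreed unevenly with each other. The N3_N1 arrays correlated at r = 0.549 across entries, which are not independent replicates, and this was the highest of all 703 pairs of arrays in the study. The next largest in size was a negative one of -0.424, and the 28 other pairs of arrays that hold the same 2 conditions in the same dyes lay between -0.0246 and 0.282 with a median of 0.0889. The N1_N3 arrays correlated at -0.0220, and the arrays of opposite orientation at -0.0254 to 0.0669. These correlations still hold the dye effect. With it removed, r was 0.506 for the N3_N1 arrays, -0.0394 for the N1_N3 arrays and 0.0264 to 0.133 between orientations. The N3_N1 arrays were not copies of each other: 0 of their values were identical, and their difference had an SD of 0.0918, against 0.125 to 0.137 for the other pairs of direct arrays. Their correlation was 0.537 over named genes and 0.563 over unnamed features. They also correlated more with the fitted dye effect, at 0.317 and 0.309, than the N1_N3 arrays did at 0.175 and 0.113. What the N3_N1 animals or hybridisations had in common is not given in the labels and was not tested. Whether both arrays held RNA of the same animals was likewise not tested. If they did, the direct arrays would hold fewer than 8 animals and the SEs that rest on them would be too small. Because these arrays stand apart, results are given with and without them: 0 entries passed in limma without both N3_N1 arrays, and 0 without both N1_N3 arrays.

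**Figure D1:**
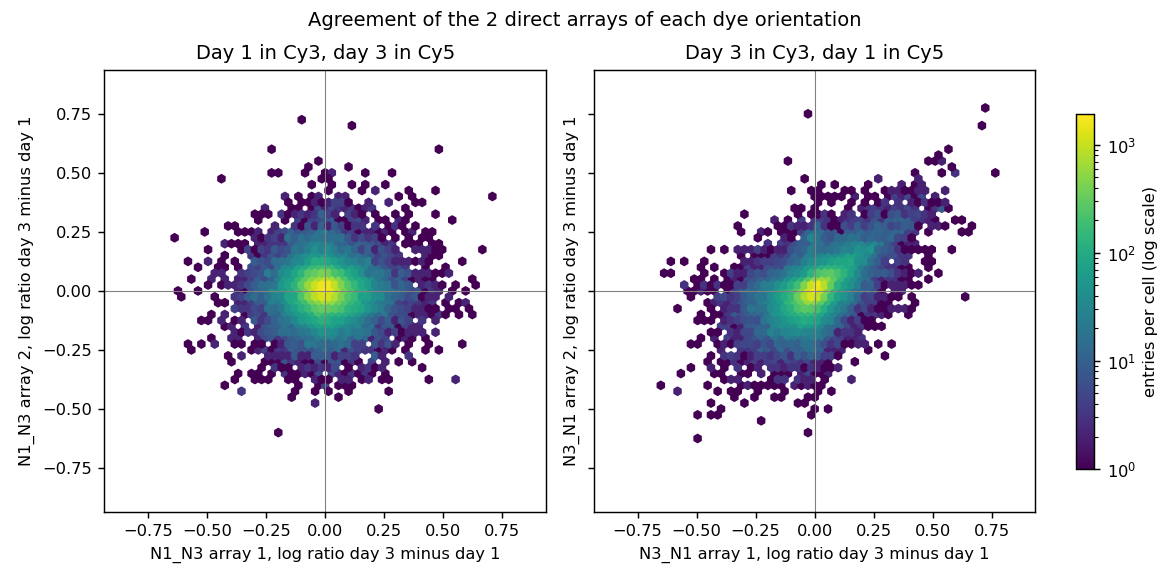
Turned log ratios (day 3 minus day 1) of the first against the second array of each dye orientation, with the colour of a cell giving its number of entries on a log scale. The N3_N1 arrays (right, r = 0.549) stretch along the diagonal, while the N1_N3 arrays (left, r = -0.0220) form a round cloud. Both r were computed with the dye effect left in.

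The genes named here are the 15 in each direction with the smallest p among named genes whose 4 direct arrays shared 1 sign. None passed the threshold. With array weights, which favour the N3_N1 arrays, 10 entries passed in limma, 6 of them among these genes (Asic5, Zfp334, Bbs7, Gm6288, Pak7 and Cdk5rap1, all higher). Across all entries, the 4 direct arrays shared a sign for 5111 (16.7%), and 378 named genes (1.98% of 19087) had this and an unadjusted p under 0.05. The 15 higher genes had log ratios of 0.0415 to 0.276 with limma's adjusted p between 0.359 and 0.686, and the 15 lower genes had sizes of 0.0531 to 0.144 with adjusted p between 0.392 and 0.809. Of these 30 genes, 14 were measured by more than 1 feature, and the features of each agreed in sign. The genes were chosen by the average of their features, so this sharing of sign is in part fixed by the choice. Sizes could differ between features, as for Fam81a (0.175 and 0.0238) and Igsf10 (-0.163 and -0.0179).

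**Figure D2:**
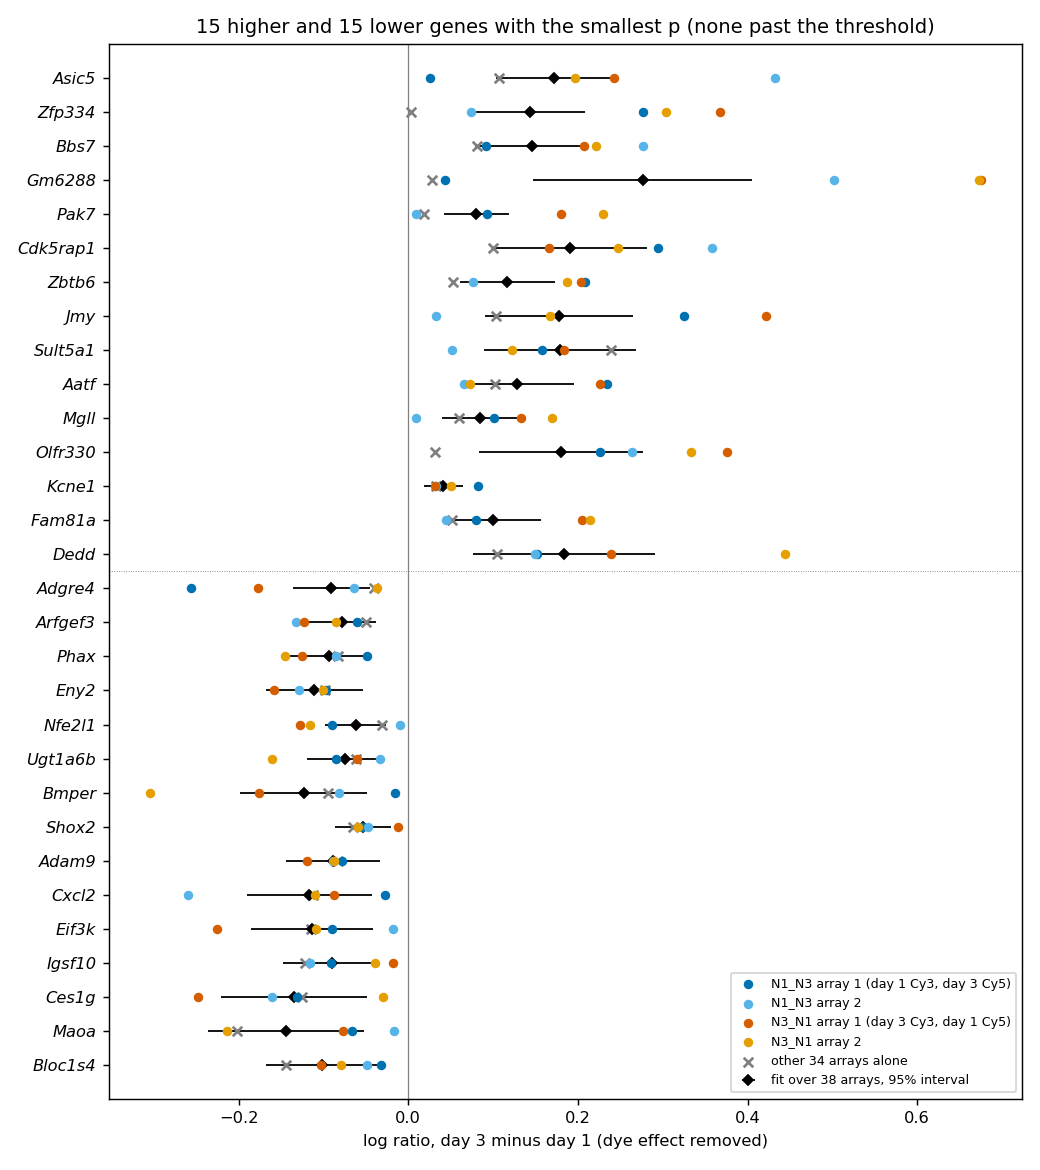
Log ratio, day 3 minus day 1, of the 30 named genes. Coloured points are the 4 direct arrays, crosses the other 34 arrays alone, and black diamonds the fit over 38 arrays with its 95% interval. All array values of a gene lie on 1 side of 0 because the genes were chosen for this.

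Among the higher genes, 3 encode membrane proteins. Asic5, an ion channel of the acid-sensing and epithelial sodium channel family, had the smallest p of these genes. It stood at 0.0255 and 0.433 on the N1_N3 arrays and at 0.242 and 0.197 on the N3_N1 arrays. The fit gave 0.172 ± 0.0338 (SE), with a 95% interval of 0.103 to 0.240 and limma's adjusted p = 0.359, which is 1.48-fold in base 10 or 1.13-fold in base 2. One N1_N3 array was close to 0 and the other was the highest of the 4, so the arrays of 1 orientation spanned those of the other. Kcne1, a regulatory subunit of voltage-gated potassium channels, stood at 0.0823 and 0.0327 on the N1_N3 arrays and at 0.0314 and 0.0501 on the N3_N1 arrays, the smallest differences of the 15. Olfr330, an olfactory receptor, stood at 0.227 and 0.264 on the N1_N3 arrays and at 0.376 and 0.333 on the N3_N1 arrays. Its N3_N1 values were above its N1_N3 values.

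Transcriptional regulators of the zinc finger type were represented by Zfp334 and Zbtb6. Zfp334 stood at 0.277 and 0.0743 on the N1_N3 arrays and at 0.368 and 0.304 on the N3_N1 arrays, and the fit gave 0.143 ± 0.0319. The other 34 arrays gave 0.00364 ± 0.0303 for Zfp334, so its difference came from the direct arrays. Zbtb6 stood at 0.209 and 0.0758 on the N1_N3 arrays and at 0.204 and 0.187 on the N3_N1 arrays, with 1 N1_N3 array far below the other 3. Gm6288, a predicted gene, had the largest fitted log ratio of all entries, 0.276 ± 0.0637, which is 1.89-fold in base 10 or 1.21-fold in base 2. Its arrays stood at 0.0436 and 0.502 (N1_N3) and at 0.675 and 0.673 (N3_N1), while the other 34 arrays gave 0.0278 ± 0.0622. The N3_N1 arrays were nearly equal and the N1_N3 arrays far apart.

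Genes of signalling and cell death made up a further group of higher values. Pak7, a p21-activated kinase, stood at 0.0934 and 0.00952 on the N1_N3 arrays and at 0.180 and 0.229 on the N3_N1 arrays. Jmy, a cofactor of p53 that also nucleates actin filaments, stood at 0.325 and 0.0327 on the N1_N3 arrays and at 0.422 and 0.167 on the N3_N1 arrays. For both, the second N1_N3 array was near 0. Dedd, a protein with a death effector domain, stood at 0.152 and 0.149 on the N1_N3 arrays and at 0.239 and 0.444 on the N3_N1 arrays. Aatf, a nuclear protein known as an antagonist of apoptosis, had a mean of 0.1497 ± 0.0932 (SD, n = 4 arrays). Both N1_N3 arrays were below both N3_N1 arrays for Dedd, and the orientations overlapped for Aatf.

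Enzymes and other cell machinery gave the remaining higher genes. Bbs7, a subunit of the BBSome that moves membrane proteins in cilia, stood at 0.0914 and 0.277 on the N1_N3 arrays and at 0.207 and 0.222 on the N3_N1 arrays, with a fit of 0.146 ± 0.0330. Cdk5rap1, which modifies mitochondrial tRNAs, stood at 0.295 and 0.358 on the N1_N3 arrays and at 0.165 and 0.247 on the N3_N1 arrays, with a fit of 0.1903 ± 0.0450. Cdk5rap1 was the reverse of Olfr330, with both N1_N3 arrays above both N3_N1 arrays. Sult5a1, a sulfotransferase, had a mean of 0.129 ± 0.0572 (SD, n = 4 arrays) and stood at 0.239 ± 0.0673 (SE) on the other 34 arrays. Mgll, which breaks down monoacylglycerols including an endocannabinoid, had a mean of 0.103 ± 0.0687 (SD, n = 4 arrays). Fam81a had a mean of 0.136 ± 0.0862 (SD, n = 4 arrays), and both N3_N1 arrays were above both N1_N3 arrays.

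The genes with lower values on day 3 reached smaller sizes and included several secreted or cell-surface proteins. Adgre4, an adhesion receptor of myeloid cells, had the smallest p in this direction. It stood at -0.256 and -0.0642 on the N1_N3 arrays and at -0.177 and -0.0369 on the N3_N1 arrays, and the fit gave -0.0907 ± 0.0223 with limma's adjusted p = 0.392. Both orientations held 1 clearly low and 1 less low array. Cxcl2, a chemokine that draws neutrophils, stood at -0.0270 and -0.260 on the N1_N3 arrays and at -0.0876 and -0.110 on the N3_N1 arrays. Bmper, a secreted protein that binds bone morphogenetic proteins and acts on endothelium, stood at -0.0154 and -0.0813 on the N1_N3 arrays and at -0.175 and -0.304 on the N3_N1 arrays. For Bmper both N3_N1 arrays were below both N1_N3 arrays. Adam9, a membrane metalloprotease that sheds surface proteins, had the tightest values of the 30 genes, with a mean of -0.0933 ± 0.0179 (SD, n = 4 arrays). Igsf10, an immunoglobulin superfamily member, had a mean of -0.0659 ± 0.0451 (SD, n = 4 arrays).

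A second group among the lower genes acts in RNA handling and gene expression. Phax, the adaptor that exports small nuclear RNAs from the nucleus, stood at -0.0488 and -0.0854 on the N1_N3 arrays and at -0.125 and -0.145 on the N3_N1 arrays. Eny2, a small subunit shared by the SAGA coactivator and the mRNA export complex TREX-2, stood at -0.0975 and -0.129 on the N1_N3 arrays and at -0.158 and -0.101 on the N3_N1 arrays. The 4 arrays lay close together for Eny2 and were split by orientation for Phax. Eif3k, a subunit of the translation initiation factor eIF3, had a mean of -0.110 ± 0.0861 (SD, n = 4 arrays). Nfe2l1, a transcription factor of proteasome genes, had a mean of -0.0857 ± 0.0530 (SD, n = 4 arrays). Shox2, a homeobox transcription factor, had a mean of -0.0436 ± 0.0215 (SD, n = 4 arrays), the smallest size among the lower genes.

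Metabolic enzymes and vesicle proteins completed the lower genes. Maoa, monoamine oxidase A, which degrades serotonin and noradrenaline, stood at -0.0664 and -0.0167 on the N1_N3 arrays and at -0.0768 and -0.214 on the N3_N1 arrays. Its fit of -0.144 ± 0.0453 was the largest among the 15 lower genes described here, 1.39-fold in base 10 or 1.11-fold in base 2, with limma's adjusted p = 0.809. The other 34 arrays gave -0.202 ± 0.0687 for Maoa, larger than the direct mean of -0.0934. Ces1g, a carboxylesterase, had a mean of -0.142 ± 0.0902 (SD, n = 4 arrays), and Ugt1a6b, a glucuronosyltransferase, one of -0.0851 ± 0.0546 (SD, n = 4 arrays). Probes of Ces1g and Ugt1a6b may also bind their near-identical paralogs, so both are uncertain. Arfgef3, of the family of exchange factors for Arf proteins, had a mean of -0.100 ± 0.0336 (SD, n = 4 arrays). Bloc1s4, a subunit of the BLOC-1 complex of lysosome-related organelles, had a mean of -0.0659 ± 0.0315 (SD, n = 4 arrays).

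The other 34 arrays reach day 3 against day 1 through hypoxia and the other days, with channels counted as other animals. On them alone all 15 higher genes were above 0 and all 15 lower genes below 0, and 3 higher and 8 lower genes had an unadjusted p under 0.05. These genes were chosen in a fit that holds the 34 arrays, so this sharing of sign is in part fixed by the choice. Over all entries the picture was another. The log ratios of the direct and of the other arrays correlated at r = -0.153 across entries, and 46.3% of entries had the same sign in both. With the direct arrays alone limma passed 0 entries (0%), while 3324 (10.8%) reached an unadjusted p under 0.05. With the other arrays alone it passed 0 (0%), while 1833 (5.98%) reached that p. Of the 3324 entries, 1314 had the same sign on the other arrays, 66 of them with an unadjusted p under 0.05, while 170 reached that p with the opposite sign. A term for the difference between direct and other arrays, added after the data were seen, passed for 0 entries (0%) in limma, with 2403 (7.84%) at an unadjusted p under 0.05. The median SE was 0.0232 on the direct arrays and 0.0449 on the other arrays, and the direct arrays supplied 54.8% of the estimate over 38 arrays.

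Gene lists for vessel wall cells, blood and lung cells and pathways of the hypoxia response were counted in the same fit. The 51 lists held 967 genes, of which 890 were measured, counting matches by synonym. Symbols not found among the entries were matched through gene synonyms, which can bring in other genes. Examples are Olfr48 among the complement and coagulation genes and Pigq among the glycolysis genes. None of the 890 passed the threshold (0%, as over all entries), and 16 had an unadjusted p under 0.05 in the higher and 25 in the lower direction, 4.61% against 4.63% of all entries. List medians lay between -0.0275 and 0.0305, where the median of all entries was -0.000188. For 36 of the 51 lists the median had opposite signs on the direct and on the other arrays, and for 8 lists the 4 direct arrays shared 1 sign. The 6 lists with the lowest and the 6 with the highest median are described, and the medians of the other 39 lay between -0.0154 and 0.0151. Lists were not tested as sets.

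**Figure D3:**
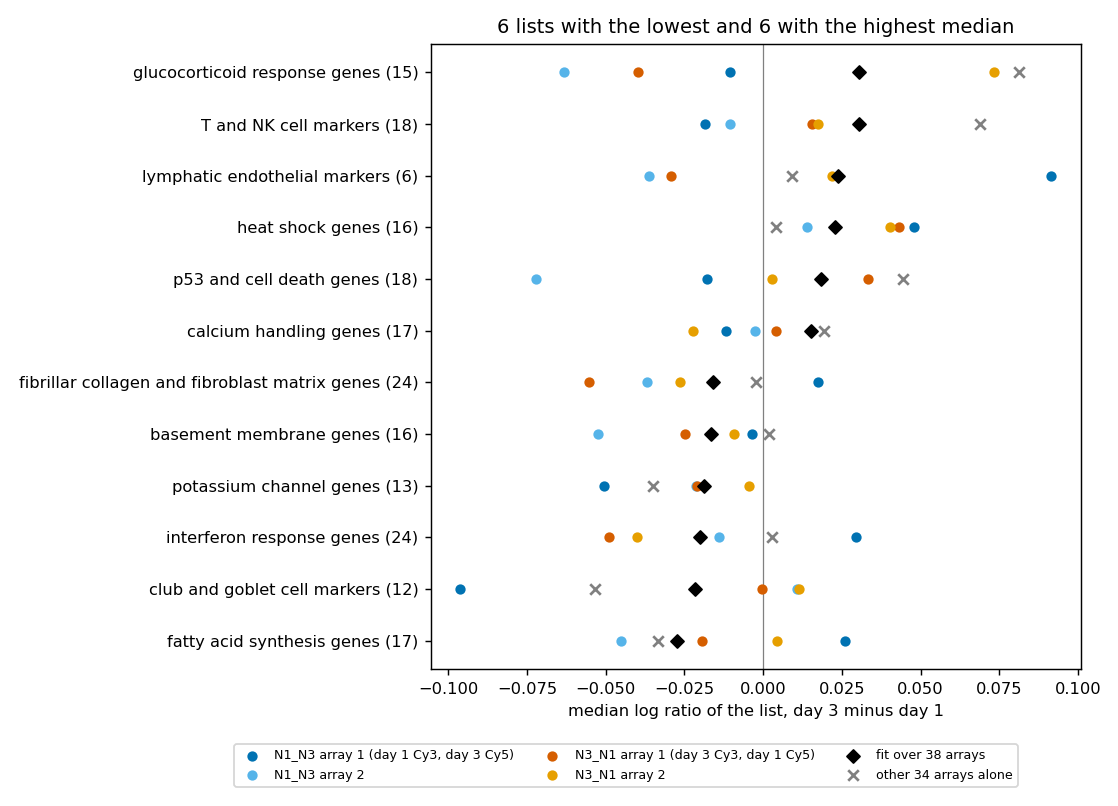
Median log ratio, day 3 minus day 1, of the 6 lists with the lowest and the 6 with the highest median, with the number of measured genes in brackets. Points are the 4 direct arrays, diamonds the fit over 38 arrays and crosses the other 34 arrays alone. The 4 arrays lie on 1 side of 0 for the potassium channel and basement membrane genes (below) and the heat shock genes (above), and on both sides for the other lists shown.

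Matrix genes of the vessel wall had low medians. The median over 24 genes of fibrillar collagen and fibroblast matrix was -0.0160 (10 above 0, 14 below), with 2 genes at an unadjusted p under 0.05, both lower. Vcan, the proteoglycan versican, stood at -0.0692 and -0.0537 on the N1_N3 arrays and at -0.254 and -0.0459 on the N3_N1 arrays, and its fit was -0.0775 ± 0.0272 with limma's adjusted p = 0.904. Postn, periostin, a matricellular protein of activated fibroblasts, stood at -0.0492 and -0.129 on the N1_N3 arrays and at 0.0206 and -0.145 on the N3_N1 arrays. Vcan was below 0 on all 4 arrays and Postn on 3. Col1a2, a chain of type I collagen, went the other way at 0.0634 ± 0.0336, with values of 0.0417 and 0.0219 on the N1_N3 arrays and of 0.210 and 0.228 on the N3_N1 arrays, and -0.0162 on the other 34 arrays. With 1 array left out the median of this list lay between -0.0248 (without N3_H replicate 1) and -0.00265 (without N3_N1 replicate 1).

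Basement membrane genes had a median of -0.0166 (6 of 16 above 0, 10 below). Nid1, nidogen, which links laminin to type IV collagen, was the member with the smallest p at -0.0845 ± 0.0321. Its arrays stood at 0.0501 and -0.242 (N1_N3) and at -0.0792 and -0.0493 (N3_N1), so that 1 N1_N3 array was by far the lowest and the other above 0. Sparc, a collagen-binding matricellular protein on both matrix lists, stood at -0.0124 and -0.109 on the N1_N3 arrays and at -0.0287 and -0.0496 on the N3_N1 arrays, below 0 on all 4. Lamb1, a laminin chain, had a fit of -0.0436 ± 0.0300 and Lama2 one of -0.0261 ± 0.0227. On the other 34 arrays the median of the list was 0.00186, so its low median came from the direct arrays.

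Ion channel genes that set smooth muscle tone lay on both sides. Potassium channels, which hyperpolarise the muscle cell and relax it, had a median of -0.0189 (5 of 13 above 0, 8 below) and list medians of -0.0507, -0.0212, -0.0210 and -0.00462 on the 4 direct arrays. With 1 array left out the median reached -0.0395 (without N1_N3 replicate 2) and -0.0381 (without N3_N1 replicate 2). Of its members, 3 had an unadjusted p under 0.05, all lower: Kcnk6, a background channel, at -0.0943 ± 0.0360, Kcnn3, a calcium-activated channel, at -0.0751 ± 0.0333, and Kcnmb1, the smooth muscle subunit of the large-conductance calcium-activated channel, at -0.0804 ± 0.0373. Kcnmb1 stood at -0.173 and 0.110 on the N1_N3 arrays and at -0.0639 and -0.00881 on the N3_N1 arrays, with 1 array above 0. Kcnk6 was below 0 on 2 of the 4 direct arrays and Kcnn3 on 3, so none of these 3 channels had 1 sign on all 4. Kcna5, a voltage-gated channel closed by hypoxia in pulmonary artery muscle, had a fit of -0.0798 ± 0.0452. Calcium handling genes had a median of 0.0152 (10 of 17 above 0, 7 below) in the fit but -0.00512 on the direct arrays, and 0.00402 in the fit without N1_N3 replicate 1. The members with the smallest p were below 0: Trpc1 at -0.0516 ± 0.0255 and Trpc6 at -0.125 ± 0.0744, both cation channels for calcium entry and both below 0 on all 4 direct arrays. Trpc6 stood at -0.101 and -0.0613 on the N1_N3 arrays and at -0.240 and -0.151 on the N3_N1 arrays. Cacnb2, a subunit of voltage-gated calcium channels, had a fit of 0.0314 ± 0.0243, and Orai1, the store-operated calcium channel, one of -0.0218 ± 0.0176.

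Immune lists had medians on both sides of 0. Inflammatory cytokine and adhesion genes, not among the lists at either end, had 20 of 27 members below 0, with medians of -0.0134 in the fit, -0.0140 on the direct arrays and -0.0150 on the other 34. On the 4 direct arrays their medians were -0.0180, -0.00450, -0.0285 and -0.00713, all below 0. It was 1 of the 8 lists whose medians shared 1 sign on the 4 direct arrays. In each direction 1 member had an unadjusted p under 0.05. Cxcl2, lower, had the smallest p of the list, and Ccl5, higher, had a fit of 0.124 ± 0.0472. Interferon response genes had a median of -0.0201 (9 of 24 above 0, 15 below), and of -0.0117 without N3_N7 replicate 2, with 2 members at an unadjusted p under 0.05. Ifit3, an antiviral protein induced by interferon, had the largest size of these members at -0.174 ± 0.0560 with limma's adjusted p = 0.811, and its arrays stood at -0.301 and -0.0794 (N1_N3) and at -0.298 and -0.205 (N3_N1). Gbp2, an interferon-induced GTPase, stood at -0.103 and -0.126 on the N1_N3 arrays and at -0.402 and -0.185 on the N3_N1 arrays, but at 0.00730 on the other 34. Ifit3 was below 0 on every direct array and on the other arrays, and Gbp2 on the direct arrays only. Stat2, a signal transducer of the interferon receptor, had a fit of -0.0864 ± 0.0462, and Cxcl10, an interferon-induced chemokine for T cells, one of -0.0707 ± 0.0353. The list as a whole had a median of 0.00284 on the other 34 arrays.

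T and NK cell markers had a median of 0.0304 (14 of 18 above 0, 4 below), but of -0.00135 on the direct arrays and 0.0688 on the other 34, and of 0.0191 in the fit without N3_H replicate 2. Ccl5, a chemokine made by activated T and NK cells, stood at 0.0879 and 0.0763 on the N1_N3 arrays and at 0.00400 and 0.0408 on the N3_N1 arrays, with a fit of 0.124 ± 0.0472. Ncr1, an activating receptor of NK cells, had a fit of 0.0825 ± 0.0393 and was below 0 on 1 direct array. Cd3e and Cd3g, chains of the T cell receptor complex, had fits of 0.0469 ± 0.0296 and 0.0696 ± 0.0456. Lymphatic endothelial markers had a median of 0.0239 over 6 genes (4 above 0, 2 below), which turned to -0.00457 without N1_N3 replicate 1. Lyve1, a hyaluronan receptor of lymphatic endothelium, was above 0 on all 4 direct arrays at 0.0659 ± 0.0365, and Pdpn, podoplanin, which alveolar type 1 cells also carry, was below 0 on all 4 at -0.0801 ± 0.0511. Prox1, the transcription factor of lymphatic identity, had a fit of 0.0240 ± 0.0243, and Flt4, a receptor of lymphatic growth factors, one of 0.0256 ± 0.0380.

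Stress-response lists had the remaining high medians. Heat shock genes had a median of 0.0227 (10 of 16 above 0, 6 below) and of 0.0479, 0.0139, 0.0431 and 0.0404 on the 4 direct arrays. With 1 array left out the median lay between 0.00887 (without N1_N3 replicate 1) and 0.0356 (without N3_H replicate 2), and with single features it was 0.00520. Hspa1a, an inducible chaperone of the Hsp70 family, stood at 0.128 and 0.317 on the N1_N3 arrays and at 0.159 and 0.0438 on the N3_N1 arrays, with a fit of 0.111 ± 0.0471 and limma's adjusted p = 0.9998. Hsph1, its co-chaperone, was above 0 on all 4 direct arrays at 0.124 and 0.198 (N1_N3) and at 0.193 and 0.0765 (N3_N1), but at -0.0231 on the other 34. The list median was 0.00414 on the other arrays. Hspb8, a small heat shock protein, and Bag3, its partner, had fits of 0.102 ± 0.0628 and 0.0319 ± 0.0216.

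Glucocorticoid response genes had the highest median, 0.0305 (11 of 15 above 0, 4 below), but -0.0211 on the direct arrays and 0.0812 on the other 34. With 1 array left out it lay between 0.0118 (without N1_H replicate 3) and 0.0543 (without N1_N3 replicate 2). Ddit4, an inhibitor of mTORC1 that is induced by glucocorticoids and by hypoxia, stood at -0.00814 and -0.00450 on the N1_N3 arrays and at 0.0243 and 0.214 on the N3_N1 arrays, against a fit of 0.154 ± 0.0545. Cdkn1a, the cell cycle inhibitor p21, is on this list and on that of p53 and cell death, and stood at -0.162 and -0.0989 on the N1_N3 arrays and at 0.0889 and 0.384 on the N3_N1 arrays, against a fit of 0.160 ± 0.0703. For Cdkn1a the orientations had opposite signs, and for Ddit4 3 of the 4 arrays lay near 0. Hsd11b1, which regenerates active glucocorticoid, had a fit of -0.0753 ± 0.0337, and Klf9, a transcription factor induced by glucocorticoids, one of 0.0509 ± 0.0357. The p53 and cell death genes had a median of 0.0184 (12 of 18 above 0, 6 below), but -0.00555 on the direct arrays and 0.0444 on the other 34. The fit median of this list was 0.00843 without H_N3 replicate 1 and 0.0313 without N1_N3 replicate 2. Mdm2, the ubiquitin ligase of p53, had a fit of 0.0515 ± 0.0394 with opposite signs in the orientations. Trp53inp1, a target of p53, had a fit of 0.0539 ± 0.0411, and Ccng1, a cyclin that p53 also induces, one of -0.0381 ± 0.0260.

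Lipid and airway lists had the lowest medians. Fatty acid synthesis genes had a median of -0.0275 (3 of 17 above 0, 14 below), and of -0.0162 without N3_H replicate 1. Fads1, a fatty acid desaturase, had a fit of -0.137 ± 0.0670 that came mainly from the other 34 arrays (-0.249), and the direct arrays stood at 0.00575, -0.136, -0.0813 and 0.0280. Srebf1, the transcription factor that drives this pathway, went against its list and was above 0 on all 4 direct arrays, at 0.0339 and 0.0421 (N1_N3) and at 0.100 and 0.106 (N3_N1), with a fit of 0.0678 ± 0.0332. Me1, malic enzyme, which supplies reducing power for the pathway, had a fit of -0.0679 ± 0.0410, and Acsl4, an acyl-CoA synthetase, one of -0.0359 ± 0.0259, both with signs that differed among the direct arrays. Club and goblet cell markers had a median of -0.0217 (2 of 12 above 0, 10 below), and of -0.0535 on the other 34 arrays, also with 10 of 12 below 0. Among the direct arrays it was -0.0961 on the first N1_N3 array and -0.000414 to 0.0114 on the other 3. The fit median was -0.0139 without that first array. Aldh1a1, an aldehyde dehydrogenase, had the smallest p of the list at -0.0621 ± 0.0338, above 0 on 1 direct array. Reg3g, an antimicrobial lectin, had a fit of -0.105 ± 0.0681 and Bpifa1, a secreted airway protein, one of -0.0743 ± 0.0525, each also above 0 on 1 direct array.
Cyp2f2, a cytochrome of club cells, had a fit of -0.0555 ± 0.0332, with both N1_N3 arrays below 0 and both N3_N1 arrays above it. Vessels run beside airways, and these markers belong to the airway epithelium rather than to the vessel.

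**Figure D4:**
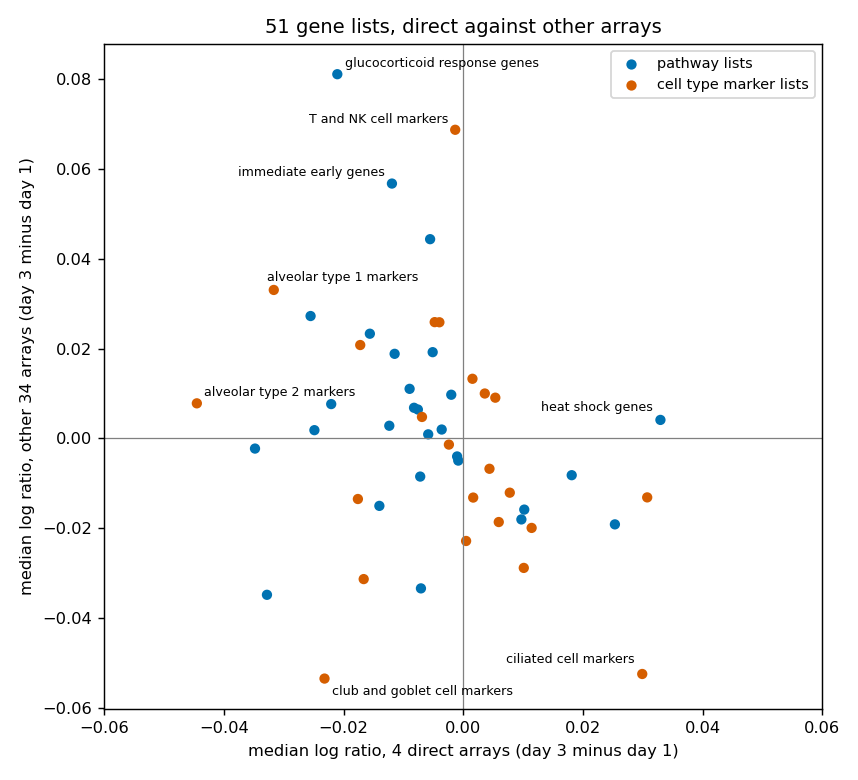
Median log ratio, day 3 minus day 1, of each of the 51 gene lists on the direct arrays (horizontal) against the other 34 arrays (vertical). For 36 lists the median has opposite signs on both axes, and the glucocorticoid response genes (-0.0211 and 0.0812) are among them.

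Of the cell type lists outside these ends, smooth muscle contractile genes had a median of 0.00625 (16 of 24 above 0, 8 below) in the fit. On the direct arrays alone 21 of the 24 were above 0 with a median of 0.0307, and on the other 34 arrays 15 were below 0 with a median of -0.0131. The smooth muscle list thus had opposite signs by route, and its 4 direct medians were 0.0692, -0.0163, 0.0486 and 0.0175. Endothelial markers had a median of 0.00896 (18 of 26 above 0, 8 below), with -0.00478 on the direct arrays and 0.0259 on the other 34. Neither list had a member at an unadjusted p under 0.05 in the fit. Since the deposited values are ratios, they hold no level, and whether these markers of the labelled tissue were above background was not analysed here. The median was -0.00319 over 22 macrophage and monocyte genes and 0.00744 over 14 neutrophil genes. All 11 measured red cell and erythroid genes were below 0 in the fit, but the median of -0.00892 was small, and on the direct arrays it was 0.0101. Targets of the hypoxia-inducible factors, which had been active until the return, had a median of -0.00424 over 29 genes with 1 in each direction at an unadjusted p under 0.05. Mitosis genes (-0.00732, 26 genes) and S phase genes (-0.00669, 23 genes) also lay near 0.

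Markers of neighbouring lung tissue had unequal values in both orientations. A score over 28 alveolar markers was below 0 on all 4 direct arrays, at -0.0235 and -0.0283 on the N1_N3 arrays and at -0.0442 and -0.0514 on the N3_N1 arrays. In the fit over 38 arrays it was -0.0134 ± 0.0141 (SE), a difference within its error. Alveolar type 1 markers had medians of -0.00426 and 0.00619 on the N1_N3 arrays and of -0.0519 and -0.0658 on the N3_N1 arrays, while ciliated cell markers had medians of 0.00932 and 0.0131 on the N1_N3 arrays and of 0.0740 and 0.101 on the N3_N1 arrays. The N3_N1 arrays were thus lower in type 1 markers and higher in ciliated markers than the N1_N3 arrays. With the alveolar score as a covariate 0 entries passed in limma. The part of neighbouring tissue in the values of single genes was not tested.

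Each orientation was then fitted with a term of its own, a comparison added after the data were seen. The pair of N3_N1 arrays alone gave 190 entries past an adjusted p of 0.05 in limma (0.620%), 94 of them named genes, 75 higher and 19 lower on day 3. The 190 had a median size of 0.261, and 76 of them had the same sign on the other 34 arrays. The count was 91 without N3_N1 replicate 2, and 15 with both N3_N1 arrays averaged to 1. The pair of N1_N3 arrays gave 28 entries (0.0913%), 9 of them named genes, and 79 or 128 without its first or its second array, where the remaining array is assumed to vary like the other arrays. Of the 94 named genes of the N3_N1 pair, 51 had the same sign in the N1_N3 pair and 0 also passed there. Of the 30 genes named above, 5 of the higher ones (Zfp334, Gm6288, Pak7, Olfr330 and Fam81a) and 0 of the lower ones passed in the N3_N1 pair, and 0 passed in the N1_N3 pair. The choice of the 30 genes used both pairs, so passing in either is in part fixed by it.

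The difference between the orientations passed the threshold for 35 entries in limma (0.114%), among them 11 named genes. The count was 87 without N1_N3 replicate 2. The smallest p belonged to 9630028I04Rik, a transcript with no role given here, at -0.00583 and -0.239 on the N1_N3 arrays and at 0.495 and 0.514 on the N3_N1 arrays, a difference of 0.713 ± 0.0648. Hrk, a BH3-only inducer of apoptosis, stood at -0.0434 and 0.223 on the N1_N3 arrays and at -0.368 and -0.349 on the N3_N1 arrays. Btg1, an inhibitor of proliferation, stood at -0.116 and -0.215 on the N1_N3 arrays and at 0.0408 and 0.272 on the N3_N1 arrays. In these genes the sign of day 3 against day 1 depended on which arrays were read. Slc29a2, a nucleoside transporter, was high on the N1_N3 arrays (0.304 and 0.508) and near 0 on the N3_N1 arrays (0.0172 and -0.0320). Olfml2a, a secreted olfactomedin-like protein of the matrix, was below 0 on the N1_N3 arrays (-0.143 and -0.109) and above 0 on the N3_N1 arrays (0.390 and 0.272). Dye orientation, animals and hybridisations differ together between these pairs and cannot be told apart.

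Last, the levels of the named genes were followed over the return, as log ratios against hypoxia in the fit over 38 arrays. The 15 higher genes were all below hypoxia on day 1 and above it on day 3, and 14 were below their day 3 value on day 7 and 15 on day 14. The 15 lower genes were all below hypoxia on day 3, 11 were above it on day 1 (among them Arfgef3, which was at -0.0493 there with single features), and all 15 were above their day 3 value on days 7 and 14. The choice of genes by their day 3 minus day 1 difference fixes part of this pattern, and it was not tested. Asic5 stood at -0.0657 ± 0.0322 (SE) on day 1, 0.106 ± 0.0314 on day 3, -0.0347 ± 0.0317 on day 7 and -0.00321 ± 0.0345 on day 14. Day 3 was the high point for Asic5 among these days. Eny2 stood at 0.0668 ± 0.0269 on day 1, -0.0442 ± 0.0261 on day 3, 0.0503 ± 0.0264 on day 7 and 0.101 ± 0.0288 on day 14. Phax stood at 0.0203 ± 0.0225 on day 1, -0.0733 ± 0.0219 on day 3, -0.0176 ± 0.0221 on day 7 and 0.0399 ± 0.0241 on day 14. For Eny2 and Phax, day 3 was the low point.

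**Figure D5:**
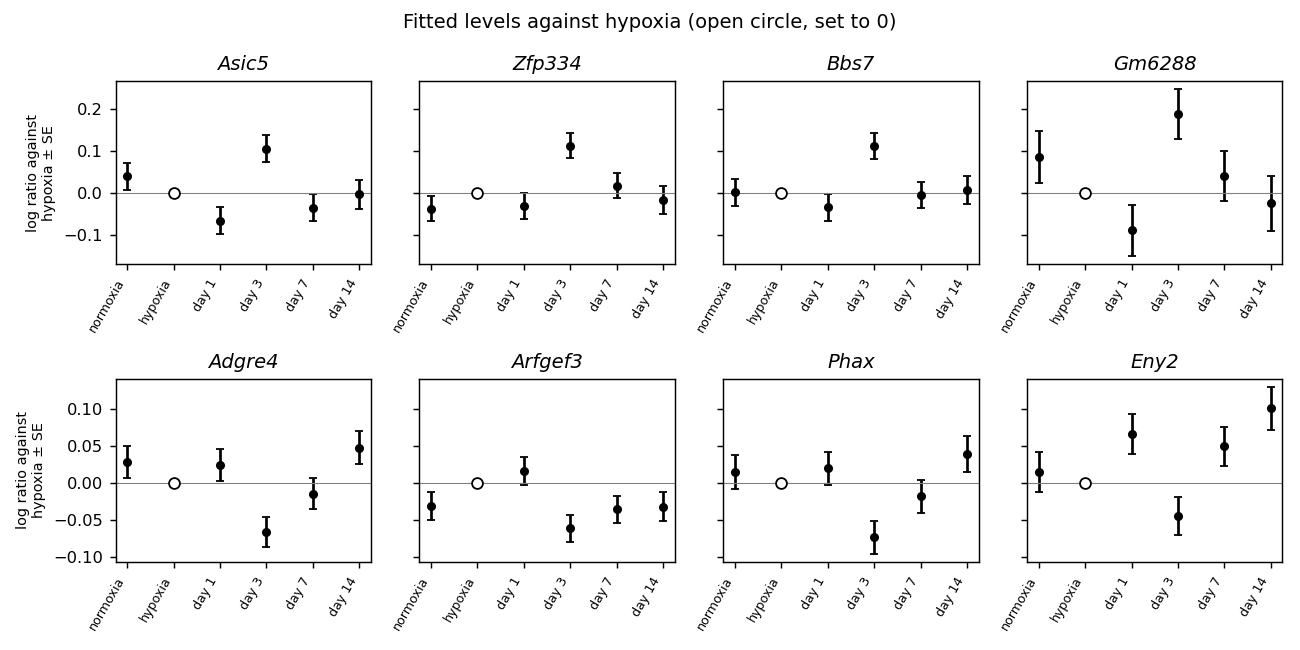
Fitted log ratio against hypoxia (vertical, ± SE) of the 4 higher and the 4 lower genes with the smallest p, in normoxia and at days 1, 3, 7 and 14 of the return (horizontal). Day 3 is the highest point of the return for Asic5, Zfp334, Bbs7 and Gm6288 and the lowest for Adgre4, Arfgef3, Phax and Eny2.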

How the data were processed

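The data were 2-colour Agilent arrays, with each channel taken as 1 mouse from the number of animals the study gives. Each feature has 1 log ratio per array, as deposited by the authors. The submitters' processing notes name limma with no version. How background was corrected and arrays were normalized is not stated in these sources. The small size of the values led to reading the deposited ratios as log10, without settling the base, on which no test depends. Brightness and scan dates were not used here, so no dim features were filtered and no batches were tested.

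Of 45220 features, 2 with a missing value were dropped. The platform's annotation, possibly outdated, gave 1 symbol for 33653 features, several for 56 and none for 11511, and a RefSeq table of GRCm38.p6 changed 0 of them. Averaging over the features of a gene (8343 genes had more than 1) left 30653 entries: 19087 named genes and 11566 unnamed features. No coordinates or sequences are given, since no gene passed the test.

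In R 4.3.3, limma 3.58.1 (lmFit, eBayes) fitted all 38 arrays. The dye effect was the intercept, and each of 5 conditions had a term relative to hypoxia, signed by dye. This left 32 degrees of freedom, and the residual SD had a median of 0.0821. The dye effect passed the threshold for 290 entries. The p-values of tests in both directions were adjusted by the Benjamini-Hochberg method over all entries at 0.05. The number of arrays limits the precision.

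Members, gene lists and tests were chosen with earlier results of these data known. Named genes were to be up to 15 per direction past the threshold with the largest log ratio and 1 sign on all 4 direct arrays, filled up by the smallest p. Of the 51 lists, the 6 at each end by median were described with 4 members each, those with the smallest p. Genes of the orientation comparison were chosen after their values were seen. Alternatives were other scalings, feature choices, filters, empirical Bayes settings, array weights, a covariate, a replicate block, direct or other arrays alone, and each array left out. The steps were tested on simulated data.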

Additional observations from a re-analysis of the deposited data

Results flagged for a closer look

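Among 81 groups of 4 direct arrays examined (the 30 named genes and the 51 list medians), 5 held an array far from the other 3, by Dixon's criterion at the 95% level. Chance alone gives about 1 in 20 such groups when the 4 arrays are independent, which the correlated N3_N1 arrays were not. The array that stood apart was N1_N3 replicate 2 for Zbtb6 (0.0758) and for the respiratory chain genes (-0.0278, with the other 3 arrays at 0.0413, 0.0436 and 0.0374). It was N1_N3 replicate 1 for the club and goblet cell markers (-0.0961), the macrophage and monocyte markers (0.0453) and the nerve and Schwann cell markers (-0.00232). All 5 single arrays were N1_N3 arrays. The correlation of the N3_N1 arrays with each other makes either of them less likely to stand apart alone. No cause was tested.

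The dye orientations differed, by the test of the difference itself in limma, for 35 entries, 11 of them named genes. As pair with day 3 in Cy3 minus pair with day 1 in Cy3, the differences were 0.713 for 9630028I04Rik, 0.618 for Ccdc146, 0.514 for Olfml2a, 0.486 for 2310069B03Rik and 0.441 for 5730419F03Rik. Smaller positive differences were 0.360 for Btg1, 0.233 for Olfr1156 and 0.221 for Gm20045. Negative differences were -0.514 for Hrk, -0.460 for Slc29a2 and -0.360 for Tctex1d1. Their unequal values in both orientations are differences between pairs of arrays, and the cause was not tested.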

How the results depend on the processing

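The count of entries that differ between day 3 and day 1 stayed at 0 in all 38 fits with 1 array left out and in 13 of 15 other settings. The exceptions were single features, with 1 (a feature of Ipo11), and array weights, with 10. The weights were 0.981 and 1.13 on the N1_N3 arrays and 1.46 and 1.67 on the N3_N1 arrays, so they leaned on the pair that correlates. Of the 10, 6 were named genes, with limma's adjusted p of 0.0304 for Asic5 (0.177), 0.0454 for Zfp334 (0.168), Bbs7 (0.157) and Gm6288 (0.336), and 0.0467 for Pak7 (0.0959) and Cdk5rap1 (0.202). In the other settings these genes stayed short of the threshold, and over the 446 values of named genes no sign turned. The genes were chosen by p and sign on these same arrays, so their steady sign is in part fixed by the choice. With single features, each gene was read by its feature with the smallest p. Without 1 array, the lowest adjusted p of any named gene was 0.107. No member of a list passed in any setting. With the replicate block 0 entries passed, at a consensus correlation of -0.0154. The deviations of same-numbered direct arrays from their group means correlated at 0.0451. What such arrays share beyond the number is not given in the labels and was not tested. List medians moved by over the spread between arrays in 7 of 180 values, with potassium channel genes at -0.0461 without both N3_N1 arrays. The count between orientations ran from 4 (both N3_N1 arrays averaged to 1) to 156 (arrays scaled to 1 spread), and that of the N3_N1 pair from 15 to 970 (array weights). Brightness was not used, so the part of dim features in these counts was not tested.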
